A study of Homo sapiens with 6 samples.

Results

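The 10 genes described here encode proteins that switch the ERK pathway, or for some phosphatases also or mainly JNK and p38, off again after activation. There are 5 MAP kinase phosphatases, DUSP1, DUSP4, DUSP5, DUSP6 and DUSP10. The others are the Sprouty proteins SPRY1, SPRY2 and SPRY4, and the Sprouty-related proteins SPRED1 and SPRED2. All were chosen by name, with earlier results of these data known, as 10 of the 18417 named genes of the array. Each was represented by a single probe set that the platform annotation pairs with exactly 1 symbol. The cells were HCT116, an established human colorectal carcinoma line grown in serum-containing medium. Total RNA was taken 48 h after transient transfection with double-stranded siRNA against Che-1 (3 arrays labelled siChe-1) or against GFP, a jellyfish protein absent from these cells (3 arrays labelled control). Che-1 is the protein encoded by AATF. Transient transfection leaves a mixture of cells, and the labels do not state that a group's arrays represent separate cultures, in which case p-values would reflect the spread between arrays alone. In a bulk sample, fewer cells that make a transcript and less of the transcript per cell cannot be told apart.

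In the ERK pathway, growth factor receptors activate RAS proteins, which pass the signal through RAF and MEK kinases to the ERK kinases. ERK in turn raises the transcription of several of its own inhibitors. The MAP kinase phosphatases remove the activating phosphates from ERK, JNK or p38, whereas Sprouty and Spred proteins act further up, between the receptor and RAF. In tumour cells, DUSP4, DUSP5, DUSP6 and the Sprouty genes are often read as a gauge of ERK activity, because their transcripts follow it closely.

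RefSeq promoter sequences (GRCh38.p14) were matched for 8 of the 10 genes and not for DUSP4 and DUSP5. Those of DUSP1, DUSP6 and SPRY2 are shown because these are the 3 genes whose levels passed the test below, and the most upstream listed start was used. Each run gives the 250 bases before the start, 5′ to 3′ on the minus strand, at chr5:172771196-172771445 for DUSP1, chr12:89352502-89352751 for DUSP6 and chr13:80341127-80341376 for SPRY2. Capitals mark matches, on either strand, to 5 short motifs: TGANTCA (AP-1), TGACG (part of a cAMP response element), CGGAA (the core of many ETS sites), TATAAA (the TATA box) and GGGCGG (the GC box).
DUSP1: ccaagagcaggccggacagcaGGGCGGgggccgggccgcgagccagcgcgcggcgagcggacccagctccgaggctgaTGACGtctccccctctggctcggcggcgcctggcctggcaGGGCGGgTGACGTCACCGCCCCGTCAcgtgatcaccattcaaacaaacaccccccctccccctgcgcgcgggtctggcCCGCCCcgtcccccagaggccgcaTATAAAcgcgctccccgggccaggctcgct
DUSP6: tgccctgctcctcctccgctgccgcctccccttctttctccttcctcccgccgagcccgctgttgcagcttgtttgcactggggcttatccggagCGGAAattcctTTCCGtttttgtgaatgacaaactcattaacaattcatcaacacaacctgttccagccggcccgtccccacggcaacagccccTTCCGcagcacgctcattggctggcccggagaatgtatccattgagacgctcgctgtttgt
SPRY2: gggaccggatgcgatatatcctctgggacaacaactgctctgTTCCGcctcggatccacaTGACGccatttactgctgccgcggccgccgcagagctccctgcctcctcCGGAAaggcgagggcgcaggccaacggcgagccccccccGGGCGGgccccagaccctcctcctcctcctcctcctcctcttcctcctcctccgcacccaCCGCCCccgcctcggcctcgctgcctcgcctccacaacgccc

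The 3 stretches differed in what they held. DUSP1 had 4 matches to TGACG, of which those at 125 and 122 bases before the start overlap, as well as 4 GC boxes and a TATA box at 30 bases. DUSP6 had 3 matches to CGGAA, at 155, 144 and 61 bases, and none to the other 4 motifs. SPRY2 had 2 matches to CGGAA, 1 to TGACG and 2 GC boxes. None of the 8 stretches held TGANTCA. Over all 35116 promoter stretches of this length, 21.2% held TGACG, 30.3% held CGGAA, 42.6% held GGGCGG, 10.7% held TATAAA and 6.57% held TGANTCA. A match is only a match of letters, and no binding was measured in these samples.

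The targeted gene went against its label. AATF read 8.53, 8.81 and 8.87 in the 3 arrays labelled siChe-1 and 7.55, 7.75 and 7.55 in the 3 arrays labelled control (log2 RMA intensity). It was therefore 2.17-fold higher where the label says that it was depleted (limma adjusted p = 0.00122). Groups are accordingly called by their labels throughout, "higher" and "lower" describe the siChe-1 label relative to the control label, and all directions below depend on those labels being right. Array medians over all probe sets lay between 4.95 and 4.996 in the arrays labelled control and between 5.03 and 5.05 in those labelled siChe-1. The medians of the groups thus did not overlap, and centring on them was run as an alternative. The array labelled siChe-1 replicate 1 stood furthest from the other arrays of its group, with a root-mean-square difference of 0.367 over the named genes against 0.198 to 0.254 for the other 5 arrays. The 8 epithelial markers ranged from CLDN3, at 6.62 in the arrays labelled siChe-1 and 6.16 in those labelled control, to KRT8, at 12.1 and 12.5. Of these, 5 had an unadjusted p under 0.05, and after adjustment only KRT19 passed (-0.59, limma adjusted p = 0.0171). Over all 18417 genes, 3251 had an unadjusted p under 0.05 by limma. The 14 measured markers of other cell types had a median of 3.67 in the arrays labelled siChe-1 and 3.47 in those labelled control, and none of them passed the test by limma (2 at an unadjusted p under 0.05). They included PTPRC, at 2.46 and 2.41. Of the 14, 12 read no higher than GFAP (4.83 and 4.58), and TYROBP (6.07 and 5.84) and COL1A1 (7.41 and 7.02) read higher. The table has no detection calls, so it sets no line between signal and background. Levels up to that of COL1A1 are not shown to be above it in one or both groups, which applies to SPRY2, DUSP10, SPRY1 and DUSP1 among the 10 genes, and sizes of difference are uncertain there.

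Among the 10 genes, SPRY2 and DUSP1 were lower, DUSP6 was higher, and the other 7 did not pass the test (limma, Benjamini-Hochberg adjusted p under 0.05 over all 18417 genes). The 2 lower genes stand against a background of 2.52% of all genes called lower, and the 1 higher gene against 1.19% called higher. With so few genes, chosen with earlier results of these data known, these shares describe the list and do not single it out. The groups did not overlap for 4 of the 10 genes, with SPRY2, DUSP1 and DUSP4 below control and DUSP6 above it. Over all genes, 13.3% had all 3 siChe-1 values below all 3 control values and 10.6% had them above. The median difference of the 10 genes was -0.11 on the log2 scale, against 0.0051 over all genes.

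**Figure D1:**
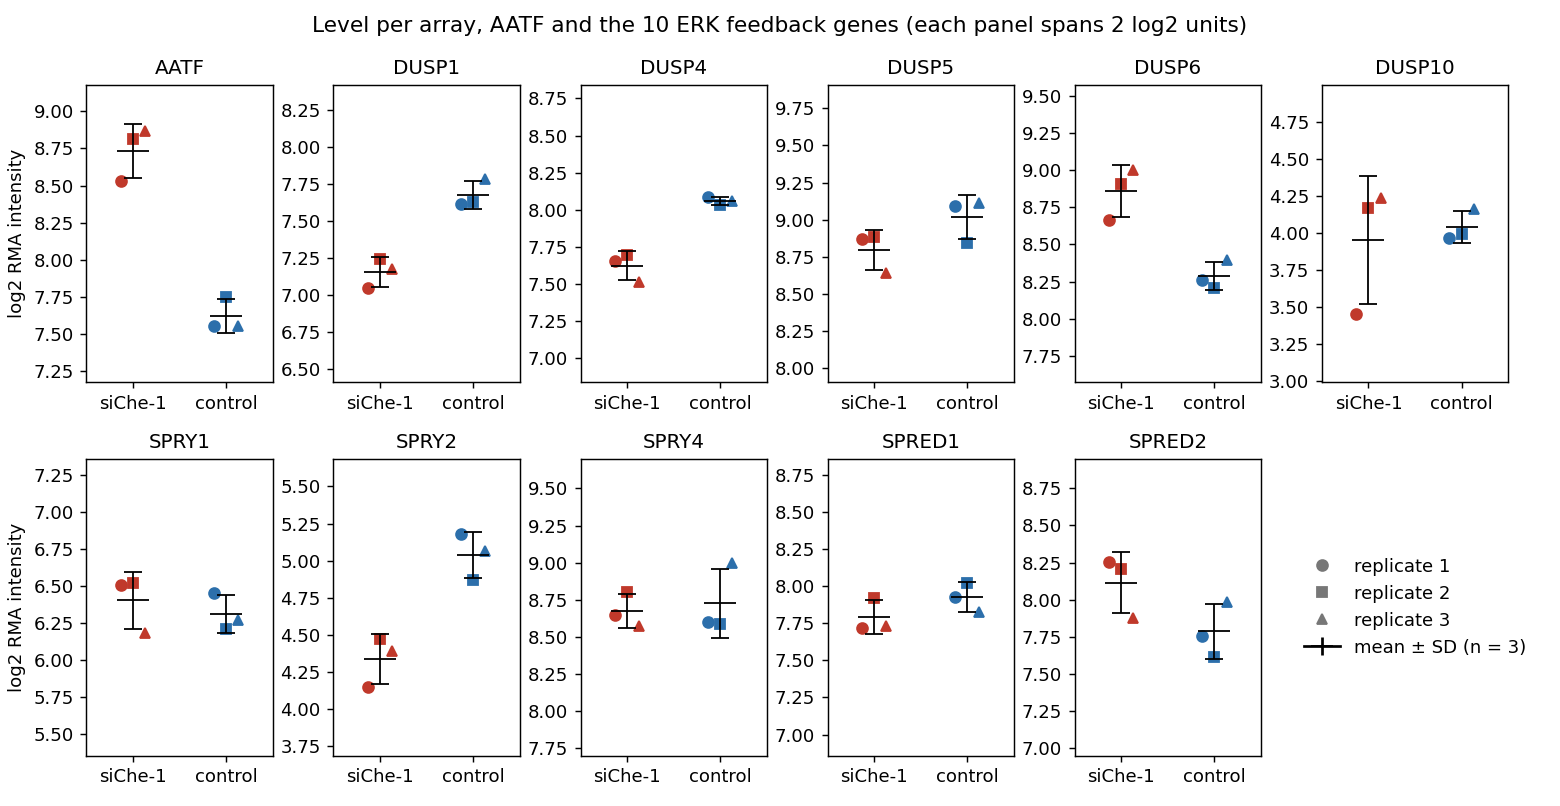
Log2 RMA intensity of AATF and of the 10 ERK feedback genes in each array, with siChe-1 on the left and control on the right of each panel. Symbols mark the replicate number and black bars the mean ± SD of 3 arrays. Every panel spans the same distance on the log2 axis, so that the gap in AATF (8.74 against 7.62) can be set beside those in SPRY2 (4.34 against 5.04), DUSP1 (7.16 against 7.67), DUSP4 (7.62 against 8.06) and DUSP6 (8.86 against 8.29).

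The phosphatases are taken first, beginning with those of the nucleus. DUSP1, an immediate early gene whose product dephosphorylates p38 and JNK as well as ERK, read 7.05, 7.25 and 7.18 in the arrays labelled siChe-1 and 7.61, 7.63 and 7.78 in those labelled control. The highest siChe-1 array was thus well below the lowest control array. DUSP1 was lower by a log2 difference of -0.52 ± 0.12 (moderated SE, n = 3 each), or to 69.9% of control with a 95% confidence interval of 58.2% to 84.0% (limma adjusted p = 0.0435). The siChe-1 level lies below that of COL1A1, so the size is uncertain. Counted over all genes, 720 had a difference at least as low. The call was lost in 9 of 16 alternatives, among them another round of quantile normalization (-0.44, adjusted p = 0.0586), an intensity trend with a robust prior (adjusted p = 0.0549) and the omission of any single array except siChe-1 replicate 1.

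DUSP4, a nuclear phosphatase that acts on ERK and JNK, read 7.66, 7.70 and 7.51 in the arrays labelled siChe-1, against 8.08, 8.03 and 8.06 in those labelled control. Its 3 control values were the most alike of any of the 10 genes (SD 0.027), and all 3 siChe-1 values lay below them. The difference was -0.44 ± 0.11, with a 95% confidence interval of -0.69 to -0.18, and missed the threshold (limma adjusted p = 0.0680). It passed after centring on array medians (-0.50, adjusted p = 0.0379), with array weights (-0.50, adjusted p = 0.00414) and without siChe-1 replicate 1 (-0.45, adjusted p = 0.0342). Over all genes, these settings also raised the number called lower, from 465 to 680, 1517 and 826. DUSP4 did not pass after another round of quantile normalization (-0.34, limma adjusted p = 0.147). Nor did it pass without any single array other than siChe-1 replicate 1 (adjusted p between 0.109 and 0.224). DUSP5, a nuclear phosphatase specific for ERK, read 8.87, 8.88 and 8.64 in the arrays labelled siChe-1 and 9.10, 8.85 and 9.12 in those labelled control. Control replicate 2 lay within the siChe-1 range, so the groups overlapped. The difference of -0.22 ± 0.13 did not pass (limma adjusted p = 0.429), and its confidence interval ran from 70.0% to 105% of control.

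DUSP6, the cytoplasmic phosphatase specific for ERK, had the opposite sign. It read 8.66, 8.91 and 9.004 in the arrays labelled siChe-1 and 8.26, 8.21 and 8.39 in those labelled control, so that the lowest siChe-1 array, replicate 1, was above the highest control array. It was 1.48-fold higher, a log2 difference of 0.57 ± 0.13 with a 95% confidence interval of 0.28 to 0.86 (n = 3 each, limma adjusted p = 0.0423). Over all genes, 291 had a difference at least as high. Without siChe-1 replicate 1 the difference was 0.67 (adjusted p = 0.00652). The call was lost in 8 of 16 alternatives, among them centring on array medians (0.51, adjusted p = 0.0567) and the omission of any single array other than siChe-1 replicate 1 (adjusted p between 0.102 and 0.175).

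DUSP10, a phosphatase that prefers JNK and p38 to ERK, read 3.46, 4.17 and 4.23 in the arrays labelled siChe-1 and 3.97, 3.99 and 4.16 in those labelled control. Such levels lie among those of most markers of other cell types. The difference of -0.09 ± 0.19 did not pass (limma adjusted p = 0.871). Its sign rested on siChe-1 replicate 1, the lowest of the 6 values, and without that array the difference was 0.16 (adjusted p = 0.443).

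**Figure D2:**
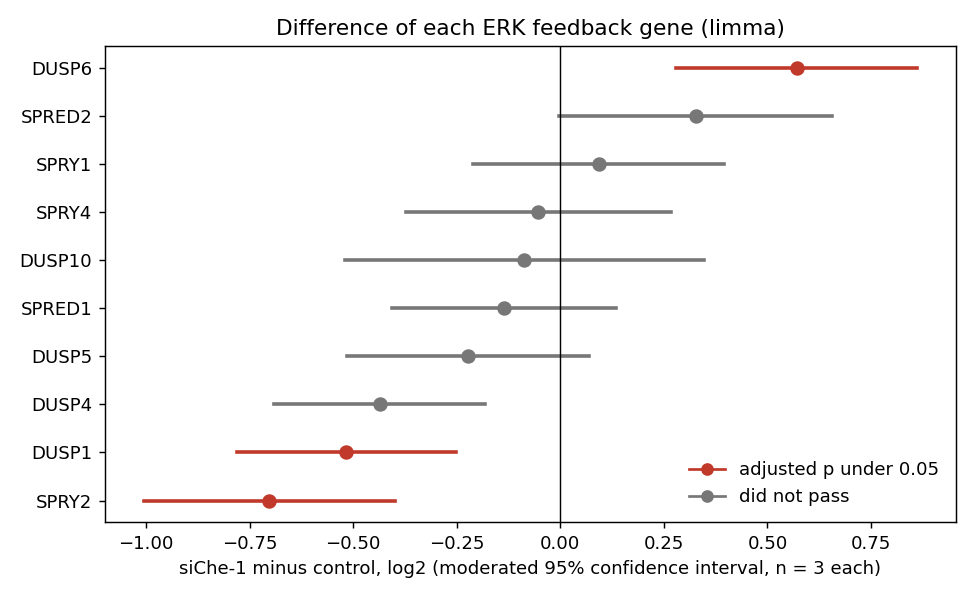
Log2 difference of each of the 10 ERK feedback genes, siChe-1 minus control, with the moderated 95% confidence interval (limma, n = 3 each), ordered by difference. The intervals of SPRY2 (-1.01 to -0.40), DUSP1 (-0.78 to -0.25), DUSP4 (-0.69 to -0.18) and DUSP6 (0.28 to 0.86) lie away from 0. Red marks the 3 genes with an adjusted p under 0.05.

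Of the Sprouty genes, which encode membrane-associated inhibitors induced by receptor signalling, SPRY2 passed the test and SPRY1 and SPRY4 did not. The SPRY2 protein binds the adaptor GRB2 and the ubiquitin ligase CBL. It read 4.15, 4.47 and 4.39 in the arrays labelled siChe-1, against 5.18, 4.87 and 5.07 in those labelled control. The groups were separated by more than the range within either. SPRY2 was lower by a log2 difference of -0.70 ± 0.14, or to 61.5% of control with a 95% confidence interval of 49.8% to 75.9% (n = 3 each, limma adjusted p = 0.0205). It had the largest difference of the 10 genes, and 324 of all genes were at least as low. It was also dim: its mean was below that of GFAP in the siChe-1 arrays and below that of TYROBP in the control arrays, so the size of the difference is uncertain. Omitting siChe-1 replicate 3, control replicate 1 or control replicate 3 ended the call (adjusted p of 0.0615, 0.117 and 0.0973), and the filter on dim genes removed SPRY2 altogether.

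SPRY1, which like SPRY2 inhibits signalling from fibroblast growth factor receptors, read 6.50, 6.52 and 6.18 in the arrays labelled siChe-1 and 6.45, 6.21 and 6.27 in those labelled control. Its values were intermixed (difference 0.09 ± 0.14, limma adjusted p = 0.788) and below those of COL1A1 in both groups, so they do not show that SPRY1 was unchanged. SPRY4, which inhibits RAS activation by receptor tyrosine kinases, read 8.65, 8.80 and 8.57 in the arrays labelled siChe-1, against 8.60, 8.59 and 8.996 in those labelled control. Control replicate 3 stood above the other 5 arrays. The difference was -0.05 ± 0.14 (limma adjusted p = 0.894), became 0.08 without control replicate 3, and had a confidence interval from 77.2% to 120% of control.

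The Spred genes did not pass. Their products bring neurofibromin, which turns RAS off, to the plasma membrane. SPRED1 read 7.72, 7.92 and 7.73 in the arrays labelled siChe-1 and 7.93, 8.02 and 7.83 in those labelled control, which overlapped (difference -0.14 ± 0.12, limma adjusted p = 0.623). SPRED2 read 8.26, 8.20 and 7.88 in the arrays labelled siChe-1 and 7.76, 7.61 and 7.99 in those labelled control. The groups overlapped, since control replicate 3 lay above siChe-1 replicate 3. The SPRED2 difference of 0.33 ± 0.15 had a 95% confidence interval of -0.0024 to 0.66 (limma adjusted p = 0.287).

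Because the phosphatases differed in sign, the log2 ratio of DUSP6 to other members within each array was set out as a description, with the pairs chosen after the values were known. The log2 ratio of DUSP6 to DUSP1 was 1.61, 1.66 and 1.83 in the arrays labelled siChe-1 and 0.65, 0.58 and 0.61 in those labelled control, a shift of 1.09. The log2 ratio of DUSP6 to DUSP4 was 1.01, 1.21 and 1.49 in the arrays labelled siChe-1 and 0.18, 0.18 and 0.33 in those labelled control, a shift of 1.01. Both ratios were higher in every siChe-1 array than in any control array. This followed from the single genes, since DUSP6 lay wholly above control and DUSP1 and DUSP4 wholly below it. The ratios therefore add no separate evidence. The ratio of DUSP6 to SPRED2 overlapped between the groups (shift 0.24), whereas those to the other 8 members did not. DUSP6 did not itself overlap between the groups, and 20 of the 36 pairs without it had ratios that did not overlap either. Many of those pairs held DUSP1, DUSP4 or SPRY2, which did not overlap as single genes. The share of non-overlapping ratios among pairs of other genes was not computed, so these counts do not single out the members. With 3 arrays against 3, an exact two-sided permutation test of a single ratio cannot give a p below 0.1.

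**Figure D3:**
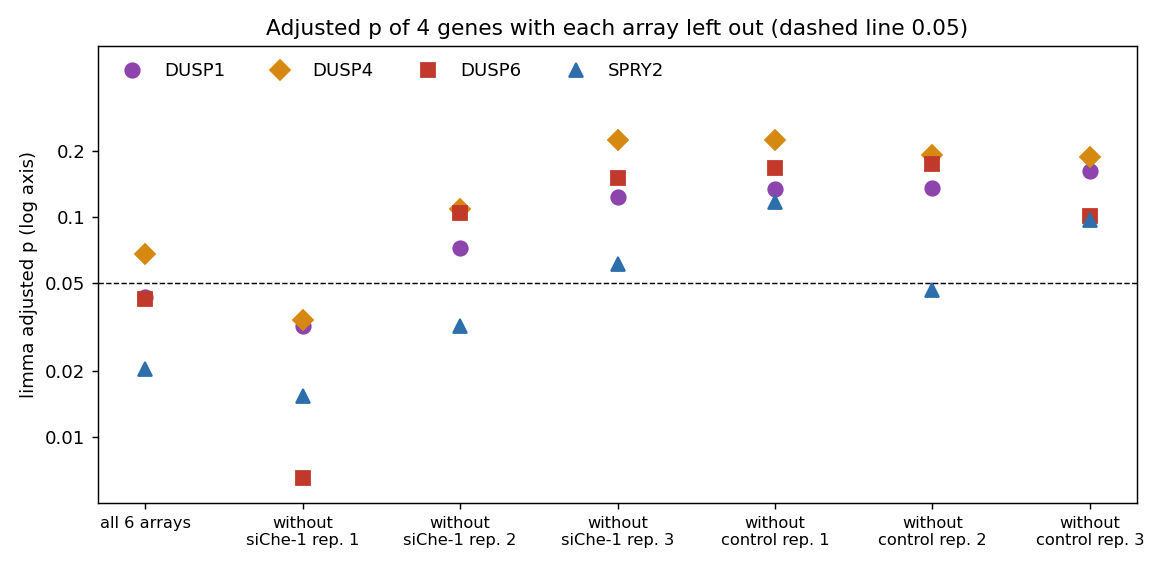
Limma adjusted p over all genes for DUSP1, DUSP4, DUSP6 and SPRY2 with all 6 arrays and with each array left out in turn, on a log axis with the threshold of 0.05 dashed. All 4 genes lie below the threshold without siChe-1 replicate 1 (0.0320, 0.0342, 0.00652 and 0.0153), and all 4 lie above it without siChe-1 replicate 3, control replicate 1 or control replicate 3. Leaving out siChe-1 replicate 1 raised the calls over all genes from 465 to 826 lower and from 220 to 739 higher.

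Other phosphatases of the same families are considered next. Of all 18417 genes, 3251 had an unadjusted p under 0.05 by limma, 2.52% were called lower and 1.19% higher. The phosphatase lists too are short and were chosen with earlier results known. By limma none of the 5 remaining MAP kinase phosphatases passed (1 had an unadjusted p under 0.05), and their median difference was -0.15. DUSP7, a cytoplasmic relative of DUSP6, read 8.14, 7.42 and 7.55 in the arrays labelled siChe-1 and 8.21, 8.003 and 8.39 in those labelled control (difference -0.49 ± 0.19, limma adjusted p = 0.205). DUSP2, an inducible nuclear phosphatase, read 6.67, 6.09 and 6.16 in the arrays labelled siChe-1 and 6.57, 6.67 and 6.60 in those labelled control (-0.31 ± 0.16, limma adjusted p = 0.354). In both genes siChe-1 replicate 1 lay apart from the other siChe-1 arrays and near the control arrays. Without it both were called lower, DUSP7 at -0.71 (adjusted p = 0.0108) and DUSP2 at -0.49 (adjusted p = 0.0216). Over all genes, leaving out that array raised the calls from 465 to 826 lower and from 220 to 739 higher. Of 9 further dual-specificity phosphatases none passed by limma (1 at an unadjusted p under 0.05, median -0.10). DUSP14 was nearest, at 7.23 ± 0.17 in the arrays labelled siChe-1 and 7.68 ± 0.12 in those labelled control (SD, n = 3 each, limma adjusted p = 0.0937), and it was called lower without siChe-1 replicate 1 (-0.55, adjusted p = 0.0180). DUSP18 followed at a difference of -0.21 (limma adjusted p = 0.486). DUSP2, DUSP14 and DUSP18 read below COL1A1 in the arrays labelled siChe-1, so the sizes of their differences are uncertain too.

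Transcripts upstream of the feedback genes are set beside all 18417 genes. Of these, 3251 had an unadjusted p under 0.05 by limma, 2.52% were called lower and 1.19% higher. With so few genes per list, and lists chosen with earlier results known, these shares do not single a list out, here or below. Of 11 other Sprouty family members and Sprouty partners, CBLB was higher and 10 did not pass (5 of the 11 at an unadjusted p under 0.05, median 0.14). CBLB, a ubiquitin ligase of the CBL family, read 5.49, 5.81 and 5.98 in the arrays labelled siChe-1 and 5.06, 5.01 and 4.98 in those labelled control, a difference of 0.75 ± 0.14 (limma adjusted p = 0.0178). Its levels in both groups lie below those of TYROBP, so the size is uncertain. The call was lost without any single array except siChe-1 replicate 1 (adjusted p between 0.0536 and 0.0905). Of 10 receptors that Sprouty proteins act on, EGFR was lower and 9 did not pass (4 of the 10 at an unadjusted p under 0.05, median 0.09). EGFR read 6.80, 7.01 and 6.70 in the arrays labelled siChe-1 and 7.45, 7.34 and 7.65 in those labelled control, or -0.65 ± 0.14 (limma adjusted p = 0.0297), of uncertain size because the siChe-1 level is below that of COL1A1. Its call was lost when siChe-1 replicate 3 or any single control array was omitted (adjusted p between 0.0741 and 0.131).

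The kinase cascades are set beside all 18417 genes, of which 3251 had an unadjusted p under 0.05, 2.52% were called lower and 1.19% higher. Of 18 measured RAS-ERK genes, 1 was lower and none was higher by limma (6 of the 18 at an unadjusted p under 0.05, median 0.14). The lower gene was MAP2K1, which encodes a MEK kinase that activates ERK, at 7.92, 8.18 and 8.21 in the arrays labelled siChe-1 and 8.65, 8.76 and 8.62 in those labelled control (-0.57 ± 0.13, limma adjusted p = 0.0347). The call was lost without any single array except siChe-1 replicate 1 (adjusted p between 0.0650 and 0.155). Of 16 JNK and p38 genes, MAPK9 was higher and 15 did not pass (4 of the 16 at an unadjusted p under 0.05, median 0.04). MAPK9, a JNK kinase, read 8.84, 8.81 and 8.86 in the arrays labelled siChe-1, against 8.18, 7.998 and 8.06 in those labelled control, and its difference of 0.76 ± 0.11 passed in all 16 alternatives (limma adjusted p = 0.00473).

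The list of ERK output genes, mostly transcripts that ERK signalling raises together with the ERK-responsive factors SRF, ELK1 and ELK4, had calls in both directions. Of 23 measured, 5 were lower, 1 was higher and 17 missed the threshold, with a median of -0.24 (11 of the 23 at an unadjusted p under 0.05). Over all genes, 2.52% were called lower and 1.19% higher, with a median of 0.0051. Of all 18417 genes, 3251 had an unadjusted p under 0.05 by limma. FOSL1, an AP-1 transcription factor, read 7.47, 6.96 and 7.16 in the arrays labelled siChe-1 and 8.54, 8.12 and 8.57 in those labelled control, a difference of -1.21 ± 0.17 (limma adjusted p = 0.00330). PPP1R15A, a phosphatase subunit of the stress response, differed by -1.02 ± 0.16 (adjusted p = 0.00722) and EPHA2, a receptor tyrosine kinase, by -0.73 ± 0.12 (adjusted p = 0.0102). FOSL1 and PPP1R15A read below COL1A1 in the arrays labelled siChe-1, so the sizes of their differences are uncertain. The other lower genes, named after their values were seen, were the cytokine LIF (-0.62) and the transcription factor MYC (-0.56). The higher gene was ETV5, an ETS transcription factor used as a readout of ERK activity, like DUSP4, DUSP5, DUSP6 and the Sprouty genes. Of those, DUSP6 was higher, SPRY2 was lower and the others did not pass. ETV5 read 8.84, 8.68 and 8.58 in the arrays labelled siChe-1 and 7.95, 7.88 and 8.07 in those labelled control (0.74 ± 0.12, limma adjusted p = 0.00935), and it did not pass without control replicate 1 or 2 (adjusted p = 0.0590 and 0.0637). Without siChe-1 replicate 1, 9 of the 23 genes were lower and 1 was higher, and without any other single array between 1 and 3 were lower. Over all genes, leaving out siChe-1 replicate 1 raised the number called lower from 465 to 826.

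**Figure D4:**
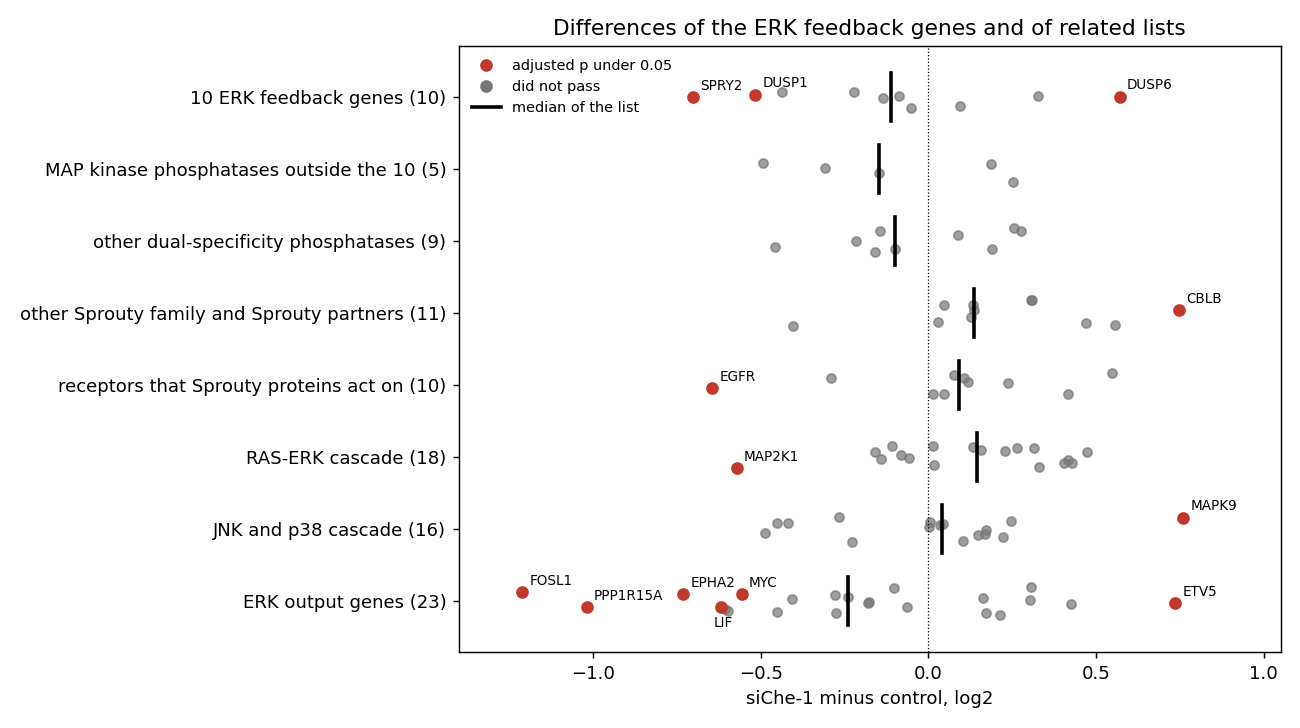
Log2 difference, siChe-1 minus control, of each gene in the 10 ERK feedback genes and in 7 related lists, with the number of measured genes in parentheses. Red marks an adjusted p under 0.05 (limma, all genes), and black bars give list medians, which ran from -0.24 for the ERK output genes to 0.14 for the RAS-ERK cascade and the Sprouty partners.

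Finally, the genes whose 6 values lay nearest to each called member, after each gene was centred on its own mean, were listed as a description. For DUSP1 these were GJB5, PRPF19 and SLC25A37, at root-mean-square log2 differences of 0.021, 0.036 and 0.040. For DUSP6 they were TTLL1, DCAF11 and PLCE1, at 0.023, 0.051 and 0.053. For SPRY2 they were GPR39, SAXO2 and TEFM, at 0.063, 0.065 and 0.066. None of the 3 called members had another of the 10 genes among its 3 nearest.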

How the data were processed

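The authors deposited log2 intensities of 33297 probe sets on 6 single-colour Affymetrix whole-transcript arrays, for which the submitters' processing notes name Affymetrix Expression Console and RMA, without versions. RMA normalizes arrays to like distributions, so a change in total RNA cannot be seen, and it compresses differences of dim genes. Precision is limited by having 3 arrays per group.

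Probe sets paired with several symbols (1754) or not listed in the annotation (12083) were not used, and for the 769 genes with several probe sets the one with the highest mean was taken, which left 18417 genes. The 2 groups were set against each other with lmFit and eBayes of limma 3.58.1 (R 4.3.3) without covariates, and p-values were Benjamini-Hochberg adjusted over all 18417 genes. The procedure was tested on simulated data. SDs are given for groups and moderated SEs for differences. There were 0 value columns of other samples. Some genes of the related lists were not analysed here.

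The 10 genes, the 7 related lists and the marker lists were chosen with earlier results of these data known. Named were the 10 genes, AATF, called list genes (up to 4 by size, all where 5 or fewer, the 2 with the smallest p where none) and the 3 nearest genes of each called member. KRT8, KRT19, PTPRC, COL1A1, CLDN3, GFAP, TYROBP, SRF, ELK1, ELK4, LIF and MYC were named outside that rule. Replicate numbers 1 to 3 are given in both groups without a shared culture or day. For that reason the arrays were not treated as paired. Deviations of same-numbered arrays from their group means correlated at 0.23, 0.064 and -0.045. Those of differently numbered arrays correlated at -0.23 to 0.16. With 3 arrays per group these correlations cannot decide whether the arrays were paired.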

Additional observations from a re-analysis of the deposited data

How the results depend on the processing

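The signs of DUSP1, DUSP4, DUSP5, DUSP6, SPRY2, SPRED1 and SPRED2 were kept in all alternatives run. DUSP10 turned to 0.15 with array weights and 0.16 without siChe-1 replicate 1, SPRY1 turned to -0.058 with array weights, and SPRY4 turned to 0.024 after another quantile normalization and 0.081 without control replicate 3. Leaving out single arrays gave DUSP10 between -0.23 and 0.16, and SPRY4 between -0.12 and 0.081. None of these 3 genes passed in any setting.

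Of the 10 genes, 2 were lower and 1 higher as reported. The lower count was 1 after another quantile normalization, 1 without the dimmest 40% of genes (SPRY2 and DUSP10 were then not tested), 1 with an intensity trend and robust prior, 0 when every probe set was tested and 0 at an adjusted p under 0.01. The higher count was 0 after centring on array medians, when every probe set was tested and at an adjusted p under 0.01. Leaving out single arrays gave 0 to 3 lower and 0 to 1 higher.

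Over all genes, 465 were lower and 220 higher. The counts were 197 and 64 at an adjusted p under 0.01, 805 and 494 at an adjusted p under 0.10, 220 and 74 when every probe set was tested, and 1517 and 1348 with array weights. Leaving out single arrays gave 199 (without control replicate 3) to 826 (without siChe-1 replicate 1) lower and 63 (without control replicate 1) to 739 (without siChe-1 replicate 1) higher. After centring on array medians, 680 were lower and 170 higher. With the replicate number as a block, 729 were lower and 416 higher, and the 10 genes had the same counts of 2 and 1. Except where another threshold or another number of tests changed a count by construction, the cause was not tested.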
